A study of Mus musculus with 7 samples.

Results

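The genes described here code for 8 basement membrane components that are not laminins. The 8 genes, *Col4a1*, *Col4a2*, *Col15a1*, *Col18a1*, *Nid1*, *Nid2*, *Hspg2* and *Agrn*, were taken by symbol from a table of normalized counts for 31531 genes, and all 8 were found and passed the filter on low values. RNA had been measured in skeletal muscle fibers of C57BL/6 fetuses at embryonic day 17.5, in 4 WT and 3 dyW libraries, each from a different fetus. The dyW fetuses were homozygous for a disrupted *Lama2* gene, came from heterozygous crosses, and serve as the mouse model of LAMA2-CMD, a congenital muscular dystrophy. The fibers had been freed from the epaxial muscles with dispase II and collagenase A and collected from a strainer, and the libraries were made with the SMART-seq2 protocol, which copies polyadenylated RNA into full-length cDNA and amplifies it by PCR.

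A basement membrane is a thin sheet of extracellular matrix that surrounds each muscle fiber and underlies endothelium and nerve. Laminins form one network on the cell surface and type IV collagen forms a second. Nidogens and the heparan sulfate proteoglycans perlecan and agrin bind to both or to the laminin side, and types XV and XVIII collagen carry glycosaminoglycan chains and sit at the border with the interstitial matrix. In laminin-α2 deficiency the main laminin of the adult muscle fiber is missing or disrupted, and the comparison asks how the RNA of the other components stood in fetal fibers.

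The libraries differed strongly in depth and in the summed levels of muscle fiber markers. WT libraries had 470804 to 2220813 reads on genes, and dyW libraries had 3663905 to 18297106. The 8 genes rested on 11 to 183 reads each in a WT library and on 49 to 8357 in a dyW library, so the counting error of the WT values was wider, and because PCR copies are not independent molecules any counting interval is a lower limit of the error. *Lama2*, the disrupted gene, had a normalized count of 90.6, 111, 105 and 107 in WT1 to WT4, 4.29 in dyW1 and 6.07 in dyW2, but 140 in the third dyW library, which is therefore termed the library labelled dyW3. The count of the whole gene does not show which exons the reads covered. Muscle fiber markers were nearly absent from dyW1, with *Ckm*, *Myh3*, *Myh8* and *Actn2* at 0 and a sum of 65.8 over 10 markers, against sums of 2660 in WT1 and 14968 to 69988 in the other WT libraries. The sum was 8231 in dyW2 and 4732 in the library labelled dyW3. *Acta1*, skeletal muscle actin, had a normalized count of 4.09 in dyW1 and 1973 in WT1. In bulk samples, fewer cells of a type and less RNA per cell cannot be told apart.

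Odorant and vomeronasal receptor genes, which muscle is not known to use, gave a level of stray reads. Their median per kb of exon was 0.631 to 2.51 reads in the WT group, 0 in dyW1 and dyW2 and 1.84 in the library labelled dyW3. Of the 8 genes, *Agrn* was nearest to this level, at 0.870 to 3.30 times it in the WT libraries, and *Hspg2* spanned 1.60 to 18.2 times. *Col4a1* was at 5.07 to 12.7 times this level in the WT libraries. *Lama2* itself stood at 0.915 to 1.61 times the receptor level in WT, with a log2 fold change of −2.58 and an adjusted P-value of 0.103. In the library labelled dyW3 it had 286 reads and stood at 8.72 times that library's own receptor level.

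No member of the set was called in limma, which asked for a Benjamini-Hochberg adjusted P-value below 0.01 together with a log2 fold change beyond 1.5 in size, and 0 of the 8 had an unadjusted P-value under 0.05. Voom on the recovered reads also called none of the 8, where 20.6% of all genes were called lower and 0.264% higher. At an unadjusted P-value under 0.05, voom had 2 of the 8 higher and 0 lower, and the share over all genes was not counted at this cutoff. Among all 25791 genes in the limma fit, the lower calls made up 18.7% and the higher calls 0.0659%. This share was not stable: the 4830 lower calls became 0 without WT2, without WT4 or without dyW2, and also 0 with equal totals, with the receptor level subtracted or with a pseudocount of 10. At the looser adjusted P-value of 0.05, 0 of the 8 passed, beside 29.6% lower and 1.0% higher among all genes. With equal library totals, 3 of the 8 were higher at an unadjusted P-value under 0.05, beside 14 of 83 partner genes listed further on. *Col4a1* and *Nid1* were then higher at an adjusted P-value under 0.05, although not under 0.01, beside 6 of the partner genes. Shares over all genes at the 0.05 cutoffs were not counted for this scaling, so these counts have no background here. The median log2 fold change of the 8 genes was −0.03, against −1.99 over all genes tested and 0.21 over the 6005 genes whose mean lay from 50 to 1000 normalized counts. The median over all genes shifted with the scaling of the libraries, to −1.24 when all libraries had the same total and to −0.15 after quantile normalization, and the median of the 8 genes was then 1.10 and −0.50. The plot of counts by library and the plot of fold changes show the values behind these statements.

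**Figure D1:**
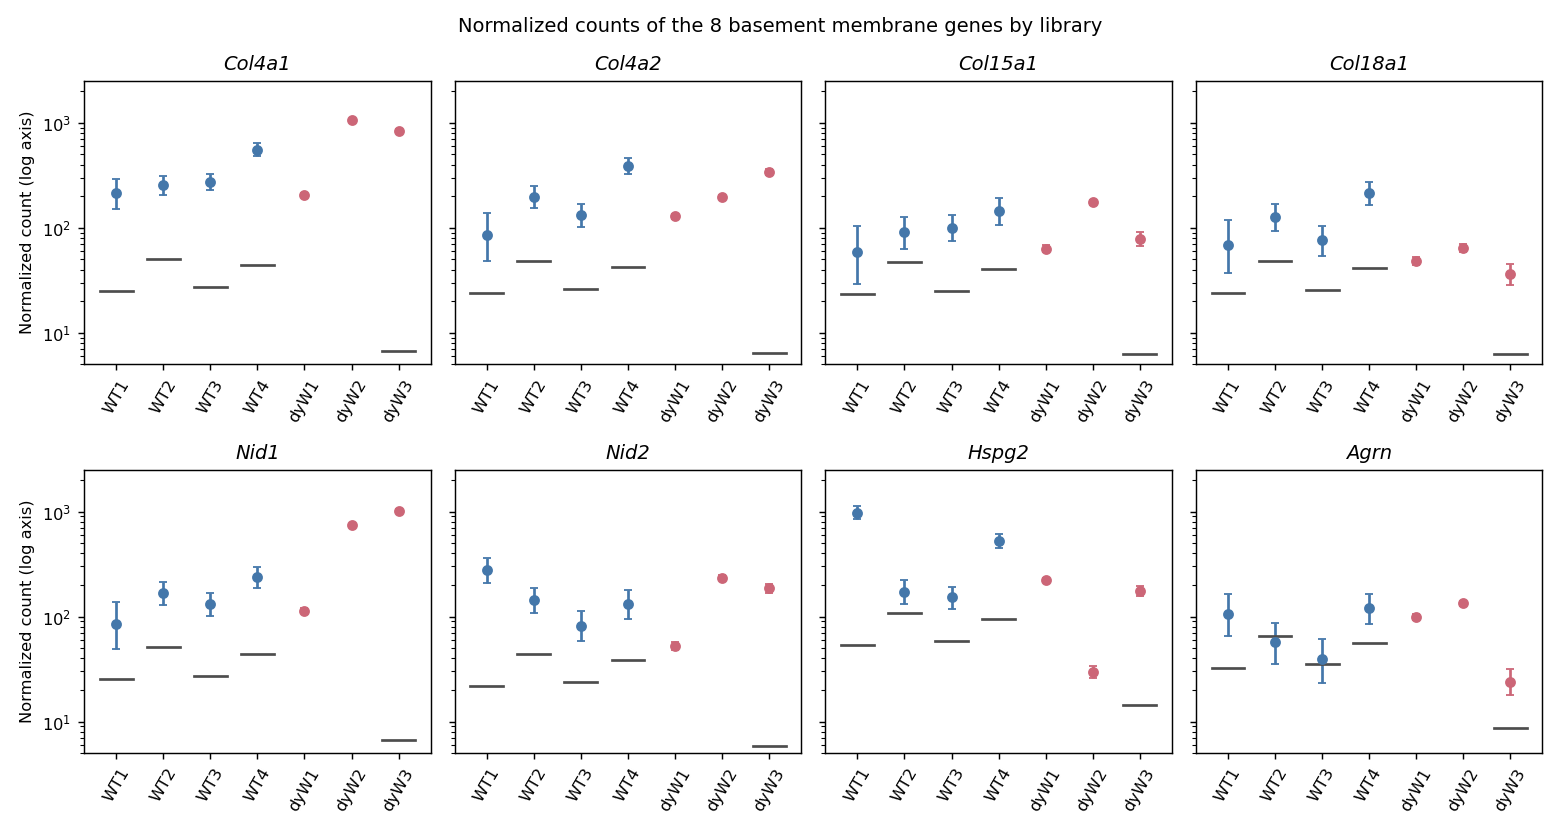
Normalized counts of each of the 8 genes (log axis) in the 4 WT (blue) and 3 dyW (red) libraries; bars are exact Poisson 95% intervals for counting error only, and grey lines mark the median level of odorant and vomeronasal receptor genes where it is above 0. *Col18a1* is the gene whose groups do not overlap, with 36.1 to 63.9 in the dyW libraries and 69.3 to 214 in the WT libraries.

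Type IV collagen of muscle is a heterotrimer of the chains encoded by *Col4a1* and *Col4a2*, and it forms the covalently crosslinked network of the sheet. *Col4a1* was at 213, 256, 273 and 557 normalized counts in WT1 to WT4, and at 204, 1057 and 832 in dyW1, dyW2 and the library labelled dyW3. The libraries dyW2 and labelled dyW3 were above every WT library, and dyW1 was below every one. Its log2 fold change was 0.90 ± 0.67 (SE), with a 95% interval from −0.63 to 2.43 and an adjusted P-value of 0.335. Without WT1 and dyW1, it was 1.47 with an adjusted P-value of 0.0849, and with equal library totals it was 2.05 with an adjusted P-value of 0.0309. After quantile normalization it was 0.13 with an adjusted P-value of 0.946, without dyW2 it was 0.45 and without the library labelled dyW3 it was 0.62.

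*Col4a2* was at 85.3, 197, 131 and 390 normalized counts in WT1 to WT4, and at 129, 196 and 341 in dyW1, dyW2 and the library labelled dyW3. The dyW values lay inside the WT range. The log2 fold change of *Col4a2* was 0.26 ± 0.66 (SE), with an interval from −1.25 to 1.77, and it turned to −0.53 after quantile normalization. The genes share a start region on chromosome 8 of GRCm39, where *Col4a1* lies on the minus strand (chr8:11248423-11362826) and *Col4a2* on the plus strand (chr8:11362471-11499287), so that their annotations overlap over 356 bases. The strand setting of the counting is not stated, and the counts per gene do not show how reads from that stretch were assigned.

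The multiplexin collagens XV and XVIII connect the sheet to the surrounding collagen fibrils, and the C-terminal piece of collagen XVIII is endostatin. *Col18a1*, on the minus strand of chromosome 10 (chr10:76888012-77002390), was at 69.3, 127, 75.9 and 214 normalized counts in WT1 to WT4 and at 48.5, 63.9 and 36.1 in dyW1, dyW2 and the library labelled dyW3. Every dyW library was below every WT library. The means were 121 ± 66.8 (SD, n = 4) and 49.5 ± 13.9 (SD, n = 3), and the exact two-sided permutation test over 35 splits gave P = 0.0571, the smallest P-value this design allows, or 0.457 after adjustment over the 8 genes. Groups that do not overlap with lower values in dyW were found for 31.5% of all genes tested, and higher values for 3.28%. For *Col18a1*, limma gave a log2 fold change of −1.16 ± 0.63 (SE), with an interval from −2.59 to 0.26 and an adjusted P-value of 0.186, and it was −0.03 when all libraries had the same total.

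*Col15a1*, on the plus strand of chromosome 4 (chr4:47207582-47313179), was at 58.6, 91.7, 101 and 145 normalized counts in WT1 to WT4 and at 63.4, 174 and 78.6 in dyW1, dyW2 and the library labelled dyW3. The groups overlapped, and the value of 58.6 in WT1 rested on 11 reads, with a counting interval from 29.3 to 105. In limma the log2 fold change was 0.02 ± 0.62 (SE), with an interval from −1.38 to 1.42, so that changes between 0.385-fold and 2.68-fold were not told apart from no change.

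The nidogens bind the γ1 chain of laminin and type IV collagen and thereby link both networks. *Nid1*, on the plus strand of chromosome 13 (chr13:13612071-13686860), was at 85.3, 167, 131 and 239 normalized counts in WT1 to WT4 and at 114, 744 and 1016 in dyW1, dyW2 and the library labelled dyW3. The library labelled dyW3 and dyW2 were above every WT library, whereas dyW1 lay within the WT range. Its log2 fold change was 1.60 ± 0.81 (SE), with an interval from −0.23 to 3.43 and an adjusted P-value of 0.161, and the exact permutation test of the counts gave P = 0.229. With the counts as deposited, *Nid1* had the highest fold change of the 8 genes. With the receptor level subtracted, *Agrn* was at 2.27 (interval from −1.87 to 6.42) and *Nid1* at 2.004 (interval from −0.086 to 4.09). *Agrn* was then 0 in WT2 and the intervals overlap, so the order of these genes was not settled. *Nid1* stayed uncalled in every alternative that was run, although the adjusted P-value was 0.0183 without dyW1, 0.0201 without WT1 and dyW1 and 0.0219 with equal totals. Without the library labelled dyW3, its log2 fold change was 0.998 with an adjusted P-value of 0.367, and after quantile normalization it was 0.81 with an adjusted P-value of 0.673.

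*Nid2*, on the plus strand of chromosome 14 (chr14:19801298-19861855), was at 277, 143, 82.1 and 132 normalized counts in WT1 to WT4 and at 52.8, 235 and 187 in dyW1, dyW2 and the library labelled dyW3. The groups overlapped, and WT1 was the highest library and dyW1 the lowest. Its log2 fold change was −0.12 ± 0.71 (SE), with an interval from −1.72 to 1.49, and its sign differed between scalings, being 1.02 with equal totals and −0.85 after quantile normalization. The bases before the annotated starts of both nidogen genes are shown because this was the pair whose ratio, given further on, did not overlap between the groups. Each run is 250 bases of GRCm39 that end directly before the first annotated base of the gene, on its own plus strand, at chr13:13611821-13612070 for *Nid1* and chr14:19801048-19801297 for *Nid2*, with capitals for CCAAT or its complement ATTGG.
Nid1: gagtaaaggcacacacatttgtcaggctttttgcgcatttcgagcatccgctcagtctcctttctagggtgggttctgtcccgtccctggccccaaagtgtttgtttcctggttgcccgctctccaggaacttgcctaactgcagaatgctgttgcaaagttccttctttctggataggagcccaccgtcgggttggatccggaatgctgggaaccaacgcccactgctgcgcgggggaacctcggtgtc
Nid2: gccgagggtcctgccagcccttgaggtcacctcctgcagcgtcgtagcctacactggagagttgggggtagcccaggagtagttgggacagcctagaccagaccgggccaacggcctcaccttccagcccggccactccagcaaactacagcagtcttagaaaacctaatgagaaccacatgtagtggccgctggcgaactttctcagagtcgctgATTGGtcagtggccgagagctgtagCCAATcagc
CCAAT or ATTGG occurred 2 times before *Nid2* and 0 times before *Nid1*, and 36.1% of 21770 windows of the same length before protein-coding genes held it. Neither window held GGGCGG or CCGCCC, found in 29.9% of the windows, or TATAAA or TTTATA, found in 12.5%. A match describes these letters and is not evidence of a binding site.

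Perlecan, encoded by *Hspg2*, and agrin, encoded by *Agrn*, are heparan sulfate proteoglycans of the sheet. Perlecan binds α-dystroglycan and growth factors, and agrin organizes acetylcholine receptors at the nerve-muscle synapse. *Hspg2*, on the plus strand of chromosome 4 (chr4:137196079-137298231), was at 976, 173, 152 and 525 normalized counts in WT1 to WT4 and at 224, 29.7 and 175 in dyW1, dyW2 and the library labelled dyW3. WT1 was the highest library and dyW2 the lowest, with overlap between the groups in the middle. The log2 fold change was −1.68 ± 0.92 (SE), with an interval from −3.77 to 0.42 and an adjusted P-value of 0.196, and it ranged from −2.24 to −0.35 over the 17 alternatives.

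*Agrn*, on the minus strand of chromosome 4 (chr4:156249740-156282014), was at 107, 56.6, 39 and 120 normalized counts in WT1 to WT4 and at 99.3, 134 and 23.9 in dyW1, dyW2 and the library labelled dyW3. The groups overlapped over most of their range. The WT values came from 19 to 38 reads, and in WT2 they did not exceed the receptor level. The log2 fold change was −0.09 ± 0.78 (SE), with an interval from −1.85 to 1.67. It turned to 2.27 when the receptor level was subtracted and to 1.04 with equal totals, so its direction differed between treatments of the data.

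**Figure D2:**
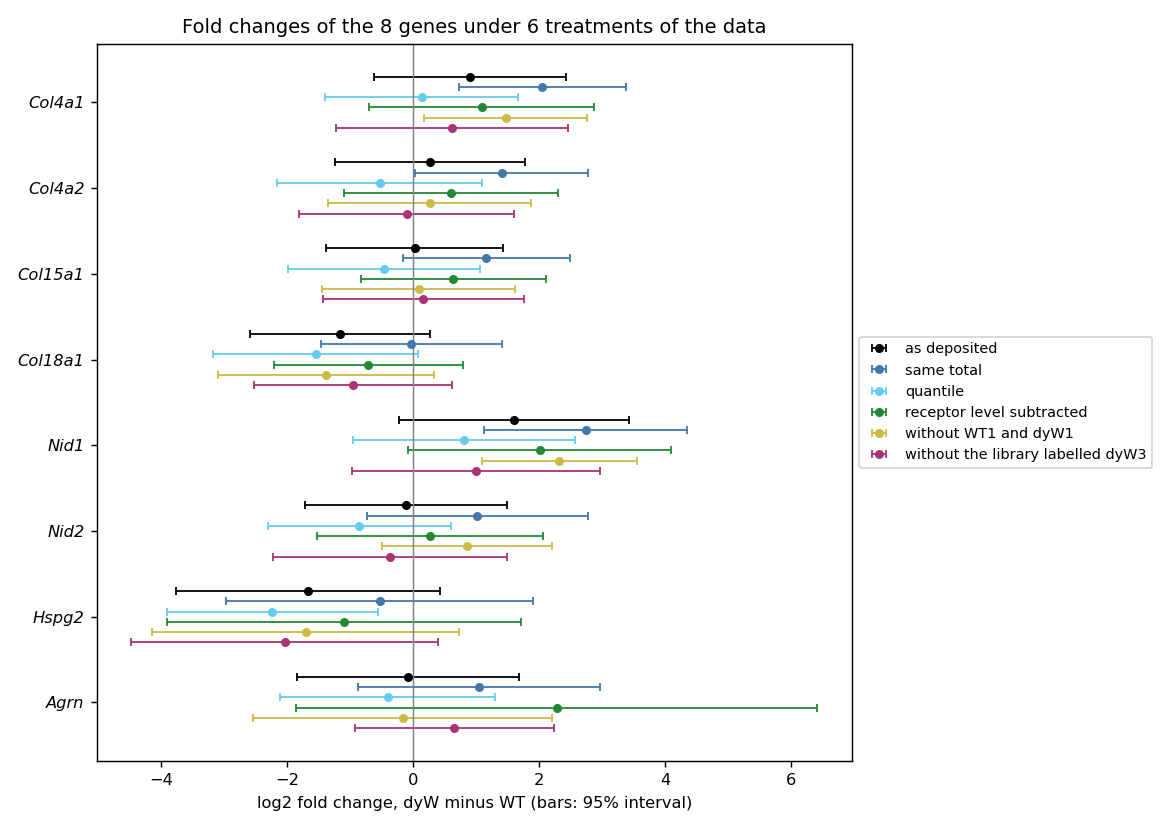
Log2 fold change (dyW minus WT) of the 8 genes with 95% intervals from limma under 6 treatments of the data. *Col4a1* and *Nid1* were above 0 under all 6 and *Hspg2* and *Col18a1* below 0 under all 6, whereas *Col4a2*, *Col15a1*, *Nid2* and *Agrn* were on both sides of 0.

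Levels can be set beside each other per kb of exon. *Col4a1* had the highest summed share in 5 of 7 libraries, at 23.5% ± 6.17 (SD, n = 4) of the summed level per kb in WT and 32.2% ± 7.49 (SD, n = 3) in dyW. *Nid1* took 6.15%, 14.5%, 14.1% and 11.5% in WT1 to WT4, and 13.9%, 28% and 38.4% in dyW1, dyW2 and the library labelled dyW3. In the last it passed *Col4a1*, which had 31.6%. *Hspg2* took 33.1% in WT1, the highest share of the 8 genes there, against 7.04% to 11.9% in the other WT libraries, 12.9% in dyW1, 0.527% in dyW2 and 3.12% in the library labelled dyW3. In the means per kb over the WT libraries, the order was *Col4a1* (43.5 normalized counts per kb), *Hspg2* (28.6), *Col4a2* (28), *Nid2* (24.4), *Nid1* (20.8), *Col18a1* (17.2), *Col15a1* (14.3) and *Agrn* (8.37). Neighbours in this order differed by less than 1 SD of either gene in all cases except *Col15a1* and *Agrn*. The place of *Hspg2* rested on WT1, where it was at 61.2 normalized counts per kb against 10.8, 9.53 and 33.0 in WT2 to WT4, and without WT1 its mean was 17.8 and its place went from 2 to 6.

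**Figure D3:**
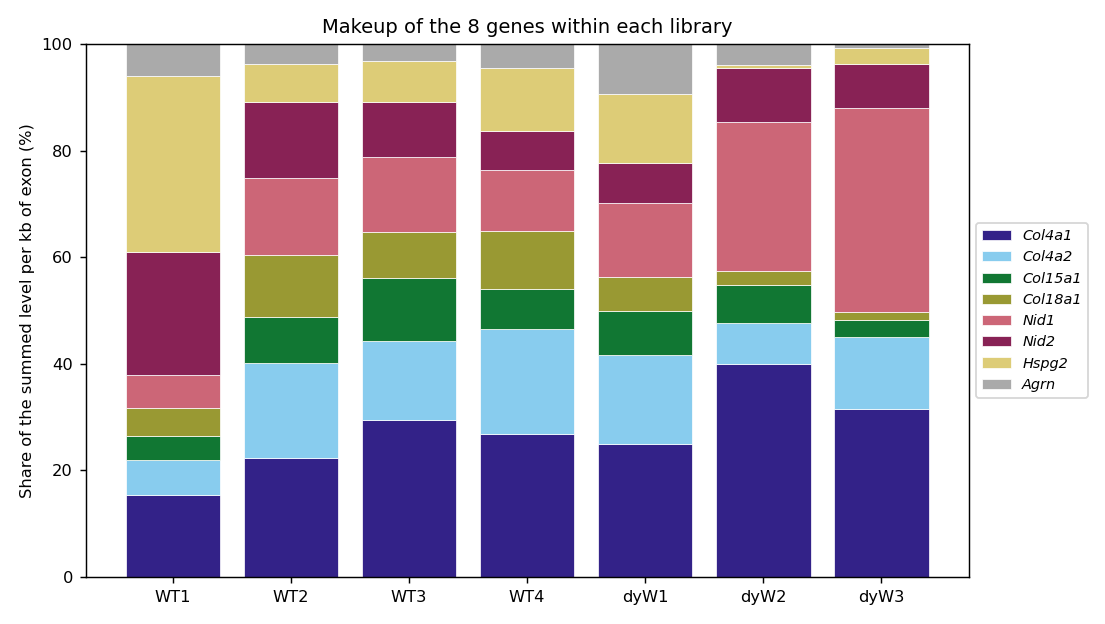
Share of each of the 8 genes in their summed level per kb of exon, in percent, for each library. *Nid1* takes 6.15% to 14.5% in the WT libraries and 13.9% to 38.4% in the dyW libraries, and *Hspg2* takes 33.1% in WT1.

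The 8 genes together held 0.0216% to 0.0746% of all normalized counts in the WT libraries and 0.0668%, 0.114% and 0.150% in dyW1, dyW2 and the library labelled dyW3. dyW1 was within the WT range and the other dyW libraries above it. Shares of the total also move with the abundant genes of each library.

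Ratios of 2 genes within a library do not depend on how the libraries are scaled, and 5 pairs were compared. The ratio of *Nid2* to *Nid1* was 3.25, 0.855, 0.625 and 0.553 in WT1 to WT4, and 0.463, 0.316 and 0.184 in dyW1, dyW2 and the library labelled dyW3. Every dyW library was below every WT library, with geometric means of 0.990 (n = 4) and 0.30 (n = 3) and an exact two-sided permutation P = 0.0571, which is 0.286 after adjustment over 5 pairs. The difference in mean log2 ratio was −1.72, and it was −1.15 without WT1. The counts behind the ratio of 3.25 in WT1 were 52 reads of *Nid2* and 16 of *Nid1*.

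The ratio of *Col15a1* to *Col18a1* was 0.846, 0.723, 1.32 and 0.676 in WT1 to WT4, and 1.31, 2.73 and 2.18 in dyW1, dyW2 and the library labelled dyW3. The dyW libraries were higher except that dyW1 lay just under WT3, and the exact permutation P was 0.114. The ratio of *Col4a2* to *Col4a1* had geometric means of 0.567 (n = 4) and 0.364 (n = 3) with an exact permutation P of 0.286. The ratio of *Agrn* to *Hspg2* varied from 0.136 to 4.50 among the dyW libraries, a wider span than in the WT libraries. The ratio of *Nid1* to *Lamc1*, which encodes the laminin γ1 chain that nidogen binds, had geometric means of 1.37 (n = 4) and 1.74 (n = 3), with an exact permutation P of 0.400.

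**Figure D4:**
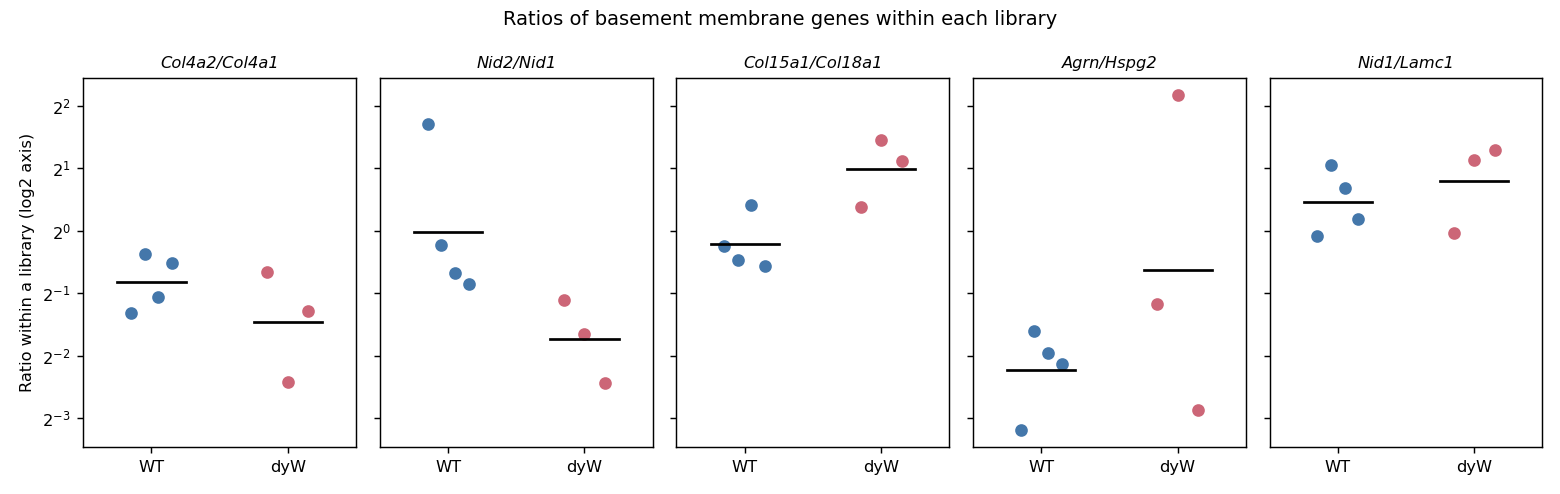
Ratios of 2 genes within each library (log2 axis) for the WT (blue) and dyW (red) libraries, with the geometric mean of each group as a bar. The ratio of *Nid2* to *Nid1* runs from 0.553 to 3.25 in WT and from 0.184 to 0.463 in dyW.

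The 83 partner genes of the basement membrane, grouped by role, are given for comparison. Of these, 9 were called lower and 0 higher, against 18.7% lower and 0.0659% higher among all genes tested, and the median log2 fold change was −1.14. The 9 calls became 0 without WT2, without WT4 or without dyW2, and with equal totals, quantile normalization or the receptor level subtracted, and the partner genes named as called share this limit. At an unadjusted P-value under 0.05 in limma, 19 of the 83 were lower and 3 higher. The share over all genes was not counted at this cutoff, so these counts have no background here. Voom called 4 lower and 0 higher, beside its 20.6% lower over all genes. Among the laminin chains, *Lama3* and *Lamb3*, which encode chains of epithelial laminins, were called lower. *Lamb3* was at 32.0, 108, 41.0 and 53.5 normalized counts in WT1 to WT4, and no dyW library had a read of it. In the WT libraries *Lama3* was at 0.985 to 1.44 times the receptor level and *Lamb3* at 1.11 to 1.94 times.

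Without overlap between the groups, 15 of the 83 partner genes were lower and 4 higher in dyW, beside 31.5% and 3.28% of all genes tested. *Lama4* was at 160, 124, 170 and 160 normalized counts in WT1 to WT4 and at 225, 308 and 436 in dyW1, dyW2 and the library labelled dyW3. *Lama4* encodes the α4 chain of endothelial and fetal muscle laminin, and each dyW library was above every WT library. Its log2 fold change was 1.02, with an adjusted P-value of 0.140. *Lamc1* was at 80.9 to 211 normalized counts in the WT libraries and at 117, 340 and 415 in the dyW libraries, with a log2 fold change of 1.25 and an adjusted P-value of 0.174. *Lama5*, the α5 chain, was lower in every dyW library than in any WT library, with a log2 fold change of −2.56 and an adjusted P-value of 0.0544.

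*Col4a3*, a chain of the kidney and lung network, was called lower, with a log2 fold change of −4.90. Its WT reads numbered 53 over all 4 libraries and were at 0.477 to 0.919 times the receptor level. *Col4a4*, *Col4a5* and *Col4a6* had log2 fold changes from −2.79 to −1.51 and did not pass. For *Col4a4*, which had the value of −2.79, the mean count was nevertheless higher in dyW (82.9 against 56.9), since the library labelled dyW3 was at 248 while dyW1 and dyW2 were at 1.17 and 0. Of the 14 other basement membrane proteins, *Frem2* and *Colq* were called lower. Of the 18 receptors, *Itga3* and *Itgb4* were called lower, and of the 11 proteases and inhibitors *Hpse*, encoding heparanase, was called lower. The 9 called genes had 27 to 110 reads over the WT libraries and lay at 0.477 to 5.27 times the receptor level in single WT libraries. None of the 14 collagen assembly genes or 11 heparan sulfate genes was called in either direction, and their medians were −0.17 and −1.08.

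**Figure D5:**
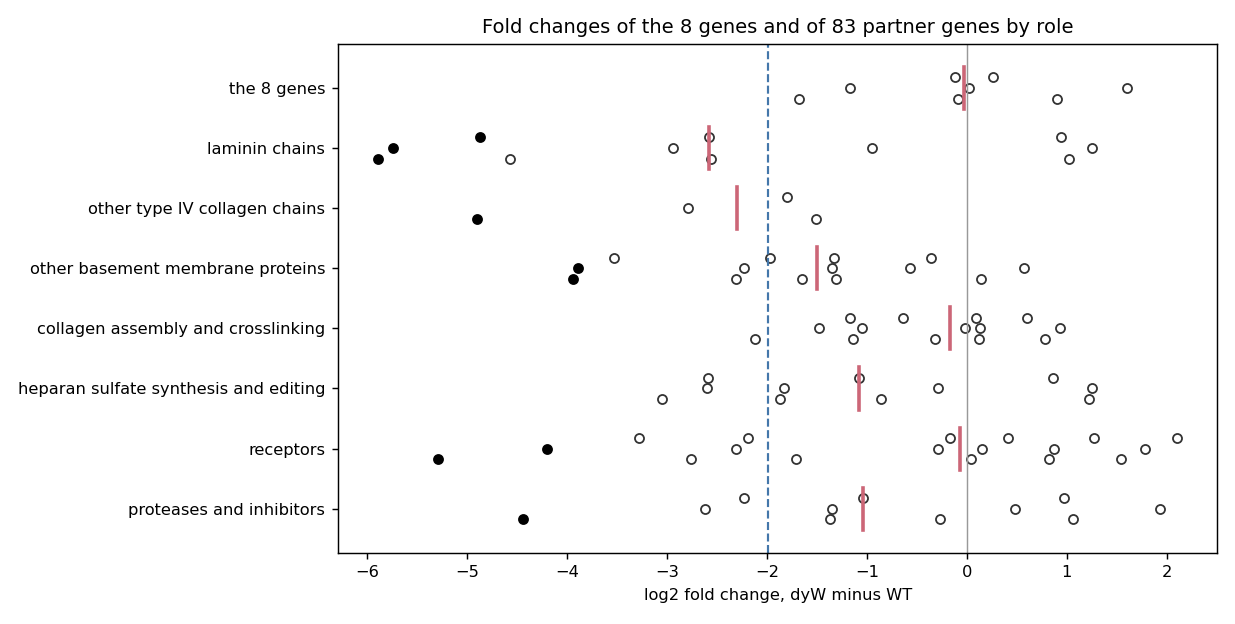
Log2 fold changes (dyW minus WT) of the 8 genes and of 83 partner genes by role; filled points were called, red bars are medians and the dashed line is the median over all genes tested. The 9 filled points lie at −3.89 or below, and none of the 8 genes is filled.

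Summed marker levels of other cell types varied between libraries. The sum over 10 fibroblast markers was 4217 to 15278 in the WT libraries and 21951 to 35038 in the dyW libraries, without overlap, and *Col1a2*, a fibrillar collagen, was at 736, 1850, 2581 and 1655 normalized counts in WT1 to WT4 and at 12046, 5971 and 4104 in dyW1, dyW2 and the library labelled dyW3. The fibroblast list did not move as 1: *Dpt*, *Mfap5* and *Twist2* were at 0 in dyW1, *Twist2* was also at 0 in the library labelled dyW3, and none of the 10 was at 0 in a WT library. *Col3a1* was at 232 in dyW1, below the 581 to 4129 of the WT libraries. The sum over 10 endothelial markers was 704 to 897 in the WT libraries and 895 to 1903 in the dyW libraries, and that over 8 mural cell markers was 650 to 2462 and 352 to 1340. The sum over 8 macrophage markers was 107 to 289 in WT, 58.1 in dyW1, 109 in dyW2 and 956 in the library labelled dyW3. That over 7 Schwann cell markers was 203 to 349 in WT, 77.9 in dyW1, 777 in dyW2 and 229 in the library labelled dyW3, and that over 4 markers of myogenic progenitors was 10.7 in WT1, 201 to 334 in the other WT libraries, 12.2 in dyW1, 367 in dyW2 and 458 in the library labelled dyW3. The macrophage sum of the library labelled dyW3 was mostly *Mrc1*, at 554 normalized counts. Of the 56 marker genes tested, 0 were called in limma, beside 18.7% called lower and 0.0659% called higher among all genes tested. At an unadjusted P-value under 0.05, 7 were lower and 4 higher, and the share over all genes was not counted at this cutoff. The lower ones were 3 of 10 muscle fiber, 3 of 6 Schwann cell and 1 of 8 mural cell markers, with *Ttn* and *Myh11* among them. The higher ones were 2 of 10 endothelial and 2 of 10 fibroblast markers. The fibroblast markers *Pdgfra* and *Col1a2* were also higher at an adjusted P-value under 0.05 in limma, beside 1.0% of all genes. The part of the cell mix in the levels of the 8 genes was not tested.

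Over the 7 libraries, each gene has other genes of closest pattern among the 6109 genes whose mean was 50 or more, by Pearson's r of the log2 values as a description. For *Nid1* these were *Bzw2* (0.99), *Tsnax* (0.97) and *Col6a3* (0.97), and for *Col4a1* they were *Pon2* (0.96), *Ybx3* (0.95) and *Rarres2* (0.95). *Nid1* and *Col4a1* had an r of 0.95 with each other, and *Nid1* was the 5th gene in the order for *Col4a1* and *Col4a1* the 12th for *Nid1*. *Col4a1* and *Col4a2* had an r of 0.71, and *Nid1* and *Hspg2* of −0.61. For *Hspg2* the closest were *Mir6236*, *Camkk2* and *Wdr5* (0.98 each), for *Col18a1* *Ppp6r2*, *Mtor* and *Usp5*, and for *Agrn* *Smarca4*, *Hnrnpr* and *Rhot1*. The 7 points share depth and scaling, and no P-value is given.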

How the data were processed

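RNA from muscle fibers of 7 fetuses (4 WT, 3 dyW, 1 library per fetus) was compared, with groups taken from the genotype labels. The authors used cutadapt for trimming and STAR for alignment to GRCm39, counted uniquely mapped reads on genes and deposited these counts divided by 1 size factor per library from DESeq2, here termed normalized counts. The strand setting and annotation release are not given in the sources used here. A deposited table of fold changes and P-values from the authors' own comparison was not used.

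Normalized counts were written with decimal commas and are not whole reads. Dividing a library by its smallest value above 0 gave whole reads for 100% of values (tolerance 0.05 reads). Depth ranged from 470804 to 18297106 reads on genes, and the low read numbers of the WT libraries limit their precision. Coordinates and exon lengths came from GENCODE mouse release 39, which matched 99.2% of the genes.

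The fit used limma 3.58.1 (R 4.3.3; lmFit, then eBayes with a trend) on log2(normalized count + 1) of genes with a mean of 5 or more, and P-values were adjusted by the Benjamini-Hochberg method. Fold changes on this scale understate those of low genes. Called means an adjusted P-value below 0.01 together with a log2 fold change beyond 1.5 in size. Exact permutation tests, two-sided and over 35 splits, served for single values, with a smallest P-value of 0.0571. Counting intervals are exact Poisson 95% intervals, and a count of 0 was read as at most 3 reads. Tests ran in scipy 1.17.1 (Python 3.11.15) and plots in matplotlib 3.10.9, and the fit was tested on simulated data.

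The genes named are the 8 genes, *Lama2*, the partner and marker lists (counts over the lists include an item not reported here), and for each of the 8 the 3 genes with the highest Pearson's r. Members and lists were chosen with earlier results of these data known. Other settings were a pseudocount of 0.1 or 10, a filter at a mean of 50 or none, equal totals, quantile normalization, subtraction of the receptor level, a replicate block, each library left out, 1 read added to ratios and an adjusted P-value under 0.05. Voom on the recovered reads and leaving out WT1 and dyW1 together were chosen after seeing the data.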

Additional observations from a re-analysis of the deposited data

Results flagged for a closer look

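Each group of 4 WT libraries was searched for a library far from the other 3, over 8 genes, 5 ratios and 83 partner genes; chance flags about 1 in 20 groups, and 7 of 96 were flagged. The ratio of *Nid2* to *Nid1* in WT1 was 3.25, far above 0.553 to 0.855 in the other WT libraries, and the dyW libraries were below all of these. *Lamc1* in WT4 had a normalized count of 211, against 80.9 to 90.6 in the other WT libraries. WT1 stood apart for *Fbln1* (58.6 normalized counts), *Xylt1* (197 normalized counts), *Sulf2* (656 normalized counts) and *Mmp2* (938 normalized counts). *Mmp9* in WT3 was at 69.7 normalized counts.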

How the results depend on the processing

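The 8 genes were called in neither direction in the 18 alternatives. Their fold changes kept the sign of the fit above in 116 of 136 alternative values. The sign turned for *Col4a2* (−0.53) and *Col15a1* (−0.46) after quantile normalization, for *Col18a1* with voom (0.080), for *Nid2* with subtraction of the receptor level (0.27), equal totals (1.02), voom (1.32) and without WT1 and dyW1 (0.85), and for *Agrn* with subtraction (2.27), equal totals (1.04) and voom (1.59). Leaving out 1 library gave log2 fold changes from 0.45 to 1.63 for *Col4a1*, 0.998 to 2.57 for *Nid1*, −0.10 to 0.65 for *Col4a2*, −0.41 to 0.31 for *Col15a1*, −0.53 to 0.54 for *Nid2* and −0.56 to 0.65 for *Agrn*, and differences in normalized counts from −37.9 to 84.4, −27.9 to 27.6, −38.9 to 52.2 and −18.8 to 36.0 for the last 4 in this order. For *Nid2* the difference turned to 29.5 with subtraction and 108 with equal totals, and the log2 ratio of *Nid1* to *Lamc1* turned to −0.89 with subtraction. The cause was not tested. The 9 partner genes called lower became 0 with a mean of at least 50, a pseudocount of 10, quantile normalization, subtraction, equal totals, or without WT1 and dyW1, and 4 with voom; leaving out 1 library gave 0 to 12, with 0 without WT2, WT4 or dyW2. Over all genes, 4830 lower and 17 higher became 0 and 0 with a mean of at least 50, a pseudocount of 10, subtraction, equal totals, without WT2, WT4 or dyW2, or without WT1 and dyW1, 2 and 0 after quantile normalization, 2090 and 3 without dyW1 and 7625 and 259 at an adjusted P-value under 0.05; the higher calls were 10 without a filter, 41 with a pseudocount of 0.1 and 68 with voom. The labels do not say whether the replicate numbers pair the samples. The deviations of same-numbered libraries correlated at 0.147, −0.0494 and −0.0880. Those of differently numbered libraries correlated at −0.122 to 0.225, so these few values do not settle the question. With a replicate block, 0 partner genes and 1 gene in all were called lower, and *Agrn* was at 0.15. No dyW library shares the number of WT4, so the fold changes with the block equal those without WT4. Both sets are among the 136 values. The ratio of *Agrn* to *Hspg2* gave no value with subtraction, since *Agrn* was then 0 in WT2. The planned edgeR and DESeq2 fits were not run, and voom on the recovered reads was run in their place. Depth limits the WT values, of which the lowest rested on 11 reads.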
